A study of Mus musculus with 7 samples.

Results

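Keratins, vimentin and actins, which build the intermediate filaments and microfilaments of the cell, were examined in cultured primary hepatocytes of WT mice and of mice lacking *Wdr6* in the whole body (WDR6-WKO). The members were the rows of the deposited table whose symbol is *Krt8*, *Krt18*, *Krt7*, *Krt19*, *Krt23*, *Vim*, *Acta2*, *Actb*, *Actg1* or *Tagln*. All 10 were found among the 14819 rows, and all 10 were among the 14779 genes that passed the expression filter. Hepatocytes were isolated from male mice by collagenase perfusion of the liver, cultured in William's E medium with fetal bovine serum, incubated overnight and left without treatment. RNA was sequenced from 4 WT and 3 WDR6-WKO samples. The study's methods name C57BL/6J as its mice in general, and give no separate strain or age for the animals behind these hepatocytes. In WDR6-WKO mice exon 2 of *Wdr6* was deleted with CRISPR–Cas9. The deletion is present in every cell of the mouse, so it was not limited to hepatocytes. The labels speak of independent experiments without saying whether each was a separate mouse, and p-values measure the spread between these samples.

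Keratins form obligate pairs of a type I and a type II chain. Hepatocytes contain keratin 8 (type II) and keratin 18 (type I) as their characteristic pair, a network that spans the cell and protects it against mechanical and toxic stress. Keratin 7 and keratin 19 mark the epithelium of bile ducts, and *Krt19* as well as *Vim*, which encodes the intermediate filament protein of mesenchymal cells, are known to appear in hepatocytes that lose differentiation on plastic. *Actb* and *Actg1* encode the cytoplasmic actins of all cells. *Acta2* (smooth muscle α-actin) and *Tagln* (transgelin, an actin-binding protein) belong to contractile cells such as smooth muscle and activated stellate cells.

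*Wdr6*, the targeted gene, was read first as a check of the labels. It had 972, 776, 769 and 909 counts across WT replicates 1 to 4, against 62, 49 and 40 counts in the WDR6-WKO replicates numbered 1 to 3, which is 5.39% of the WT level after scaling. The libraries held between 17816913 and 23668940 counted reads. WDR6-WKO replicate 3 stood apart from its group. Its counts differed from those of the other WDR6-WKO libraries by a chi-square of 14.3 and 16.0 per gene, against 3.81 to 8.24 in the other pairs of libraries of 1 genotype. Across genes, its deviation from the mean library followed the GC content of transcripts with a Spearman correlation of -0.54, where WDR6-WKO replicates 1 and 2 had 0.52 and 0.41 and WT libraries lay between -0.31 and 0.25. Fold changes of *Krt8*, *Krt18* and *Acta2* are therefore also given without that library and after correction for GC content and transcript length. The correction was chosen after seeing the data. Elsewhere both count among the alternative fits. As to the labelled cell type, *Alb*, the serum albumin gene of hepatocytes, held rank 3 among all genes in WT, at 7366 ± 730 CPM (s.d., n = 4).

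The promoters of the genes on which the results turn are shown first, as sequence context. *Krt8* and *Krt18* lie close together on chromosome 15 (GRCm38). *Krt8* lies on the minus strand at chr15:101996698-102004482 and *Krt18* on the plus strand at chr15:102028180-102032027, and 23697 bases separate them. *Acta2* lies on the minus strand at chr19:34241090-34255590. The other members lie at chr15:101411043-101430313 (*Krt7*), chr11:100140810-100148665 (*Krt19*), chr11:99477974-99493137 (*Krt23*), chr2:13573927-13582826 (*Vim*), chr5:142903115-142906754 (*Actb*), chr11:120345690-120348542 (*Actg1*) and chr9:45929619-45936058 (*Tagln*). RefSeq (GRCm38.p6) gave a promoter window, from 250 bases before to 50 bases after the start site, for 7 of the 10 genes. *Krt19*, *Actb* and *Tagln* are without one here. The windows printed are chr15:102004293-102004592 (minus strand) for *Krt8*, chr15:102027966-102028265 (plus strand) for *Krt18*, chr19:34255324-34255623 (minus strand) for *Acta2* and, as the promoter of a cytoplasmic actin beside that of smooth muscle actin, chr11:120348446-120348745 (minus strand) for *Actg1*. Capitals mark TATAAA, searched on the sense strand, and the strict CArG box, the consensus motif of serum response factor (SRF), searched on both strands as CC, then 6 bases that are each A or T, then GG.
Krt8 promoter: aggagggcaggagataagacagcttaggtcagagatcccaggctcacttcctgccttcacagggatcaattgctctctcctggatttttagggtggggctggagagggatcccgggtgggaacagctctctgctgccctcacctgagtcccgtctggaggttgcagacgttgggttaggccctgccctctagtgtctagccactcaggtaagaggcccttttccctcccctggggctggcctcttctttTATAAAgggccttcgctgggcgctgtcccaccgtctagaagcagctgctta
Krt18 promoter: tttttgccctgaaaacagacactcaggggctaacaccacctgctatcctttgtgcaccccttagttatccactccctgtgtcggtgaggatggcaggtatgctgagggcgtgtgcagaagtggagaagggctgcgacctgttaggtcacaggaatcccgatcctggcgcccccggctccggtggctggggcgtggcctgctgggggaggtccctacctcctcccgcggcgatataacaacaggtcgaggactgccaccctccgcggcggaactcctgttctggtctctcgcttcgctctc
Acta2 promoter: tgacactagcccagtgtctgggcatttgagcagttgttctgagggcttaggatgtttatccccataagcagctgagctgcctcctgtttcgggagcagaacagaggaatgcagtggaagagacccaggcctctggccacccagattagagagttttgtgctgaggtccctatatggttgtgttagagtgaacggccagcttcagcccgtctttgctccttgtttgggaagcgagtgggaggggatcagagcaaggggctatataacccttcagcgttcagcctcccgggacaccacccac
Actg1 promoter: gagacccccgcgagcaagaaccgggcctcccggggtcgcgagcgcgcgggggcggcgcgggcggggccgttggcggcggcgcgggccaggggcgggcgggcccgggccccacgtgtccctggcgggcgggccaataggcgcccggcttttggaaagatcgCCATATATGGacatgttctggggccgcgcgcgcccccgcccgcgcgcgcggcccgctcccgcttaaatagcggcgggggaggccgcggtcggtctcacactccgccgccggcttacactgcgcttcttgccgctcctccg

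TATAAA was found in *Krt8*, starting at position -1 from the RefSeq start, and in *Vim*, starting at -32. Of all 32851 promoter windows 8.32% held it. The strict CArG box was found in *Actg1*, starting at -90, and in 1.63% of all windows. The *Acta2* window held 2 CArG-like elements with 1 G or C among the 6 inner bases, starting at -84 and -34 and printed in lower case. Up to 1 such mismatch was allowed in a search added after the strict search, and 9.98% of all windows held a match. In that search the *Krt8*, *Krt18*, *Krt7*, *Krt23* and *Vim* windows had none. A match is a description of letters, and binding was not measured. For *Krt8*, *Acta2* and every other gene with a window, the gene model in GENCODE starts upstream of the RefSeq start used. Positions here are counted from the RefSeq start.

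The 10 genes covered nearly the whole range of expression in these cells. Levels are compared between genes as CPM per kilobase of merged exons, since longer genes collect more reads. In WT, *Krt8* at 3033 (range 2931–3116) and *Krt18* at 2973 (2930–3004) were the highest of the 10 and held ranks 7 and 8 of 14687 genes. Their ranges overlapped, and within WT libraries the ratio of *Krt8* to *Krt18* per kilobase lay between 1.0003 and 1.038. *Actb* followed at 1493 (1481–1503) with rank 20. *Vim* at 362 (342–382) and *Actg1* at 322 (314–335) came next, and their ranges did not overlap. *Krt19* stood at 79.9 (70.7–87.2) and *Acta2* at 28.3 (25.6–30.2) CPM per kilobase.

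At the bottom stood *Krt23* at 0.571 (0.354–0.816), *Krt7* at 0.440 (0.392–0.544) and *Tagln* at 0.397 (0.227–0.535) CPM per kilobase, with overlapping ranges. Replacing merged exons with the length of the principal transcript raised *Vim* to 783 and *Krt7* to 0.757 CPM per kilobase in WT. That change put *Krt7* above *Krt23* and kept the order of the other genes. Together the 10 genes took 1.66–1.72% of counted reads in WT libraries and 1.40–1.61% in WDR6-WKO libraries.

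**Figure D1:**
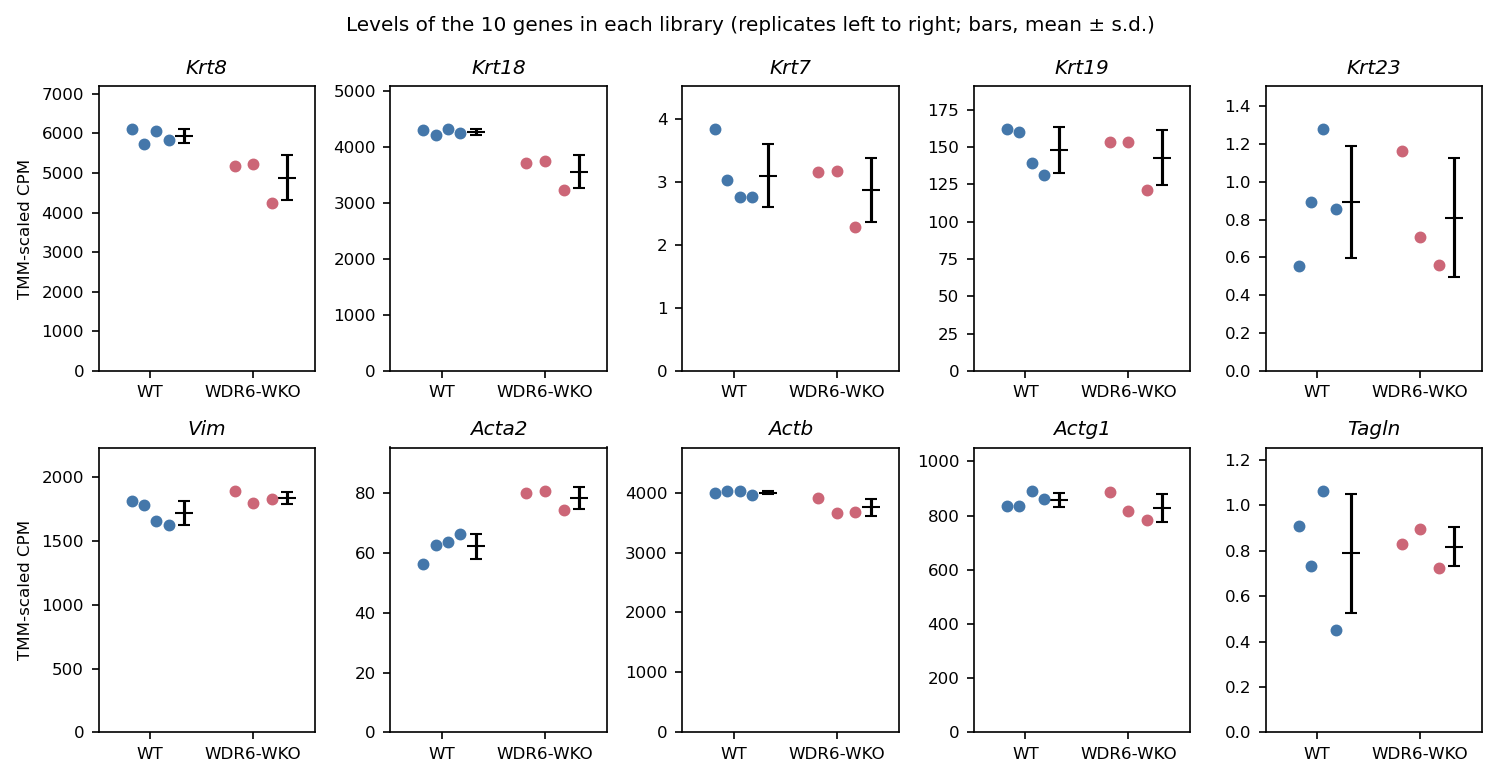
Level of each of the 10 genes (TMM-scaled CPM, linear axis from 0) in 4 WT (blue) and 3 WDR6-WKO (red) libraries, one point per library, with the mean ± s.d. of each group. *Krt8*, *Krt18* and *Actb* have every WDR6-WKO point below every WT point, *Acta2* has every WDR6-WKO point above, and the other 6 genes overlap.

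With edgeR's quasi-likelihood test over all genes, *Krt8* and *Krt18* were lower and *Acta2* was higher in WDR6-WKO hepatocytes at an adjusted p under 0.05. These 3 of 10 members compare with 12.8% of all genes tested, 6.65% called higher and 6.18% called lower. For 4 of 10 members the CPM ranges of WT and WDR6-WKO were separate, against 23.5% of all genes. In this fit no member reached the study's thresholds for differentially expressed genes (0.35 or more in absolute log2 fold change, with an unadjusted p under 0.05). Of all genes, 10.4% met them. The 3 calls were kept in 15 of 15 alternative fits. Median log2 fold changes were -0.07 over the 10 members and 0.01 over all genes. In bulk RNA, fewer cells of a type and less RNA per cell cannot be told apart.

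*Krt8* had 6100, 5739, 6071 and 5842 CPM across WT replicates 1 to 4, against 5180, 5236 and 4244 CPM in the WDR6-WKO libraries in the same order of numbers. Every WDR6-WKO library lay below every WT library, and WDR6-WKO replicate 3 was the lowest by a wide margin. The mean fell from 5938 ± 176 (s.d., n = 4) to 4886 ± 557 CPM (n = 3), or 82.3% of WT. The log2 fold change was -0.28 (s.e. 0.06; adjusted p = 0.00973, edgeR's quasi-likelihood test). An exact 2-sided permutation test, with 35 possible assignments of libraries, gave p = 0.0286, the smallest it can give. Without WDR6-WKO replicate 3 the log2 fold change was -0.19, and with the GC and length correction it was -0.34. *Krt8* still held rank 7 by CPM in WDR6-WKO, against rank 6 in WT.

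*Krt18*, its filament partner, had 4314, 4211, 4317 and 4247 CPM in WT and 3714, 3756 and 3225 CPM in WDR6-WKO libraries. Again the groups were separate, and the same library was lowest. The mean went from 4272 ± 52.1 to 3565 ± 295 CPM, or 83.4% of WT, with a log2 fold change of -0.26 (s.e. 0.05; adjusted p = 0.00408, edgeR's quasi-likelihood test; p = 0.0286, exact permutation test). Leaving out WDR6-WKO replicate 3 gave -0.20, and the GC and length correction gave -0.35. Both keratin transcripts are GC-rich, *Krt8* with 57.1% and *Krt18* with 56.4% against a median of 49.8% over genes. With and without that library, and with and without the correction, both keratins were lower at an adjusted p under 0.05 by edgeR's test.

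The pair moved in parallel. The ratio of *Krt8* to *Krt18* CPM lay between 1.36 and 1.41 in WT and between 1.32 and 1.39 in WDR6-WKO libraries, and per kilobase it was 1.02 ± 0.0179 in WT and 1.004 ± 0.0334 in WDR6-WKO. Over the 7 libraries, the gene whose scaled level was most like that of *Krt8*, among 10722 genes with a mean of at least 5 CPM, was *Krt18*, at a mean absolute distance of 0.0248 on the log2 scale. Next came 1300017J02Rik, at 0.0292. *Krt18* was closest to *Hspb1*, which encodes a small heat shock protein that associates with actin and intermediate filaments, at 0.0215. 1300017J02Rik was next to it at 0.0229, and *Krt8* was the 4th. *Hspb1* itself went from 117 ± 1.92 to 96.9 ± 7.77 CPM, a log2 fold change of -0.27, which its choice by likeness to *Krt18* makes a description.

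Some reads of *Krt8* could be assigned to a similar gene. Of its 50-base sequences, 26.9% also occur in the pseudogene *Krt8-ps*, which was listed at 11.3 ± 0.927 CPM in WT and 9.25 ± 0.482 CPM in WDR6-WKO. That is far below the level of *Krt8* itself. *Krt18* shared 0.721% of its 50-base sequences with other genes. An exon of the antisense gene *Gm36026* overlaps *Krt8* over 101 bases. Whether counting used the strand of reads is not given in the sources used here, so reads of such partners cannot be separated.

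The other keratins among the members did not pass the test. *Krt19* had 162, 160, 139 and 131 CPM in WT and 153, 154 and 122 CPM in WDR6-WKO libraries, so the groups overlapped, with WDR6-WKO replicate 3 below every WT library. Its means were 148 ± 15.3 and 143 ± 18.5 CPM, with a log2 fold change of -0.05 (s.e. 0.10; adjusted p = 0.783, edgeR's test). Per library *Krt7* had 52 to 76 counts in WT and 41 to 76 in WDR6-WKO, or 2.76 to 3.83 and 2.29 to 3.17 CPM, with a log2 fold change of -0.10 (s.e. 0.19). *Krt23*, a keratin of type I that is low in healthy liver, had 11 to 24 counts in WT and 10 to 28 in WDR6-WKO libraries, with a log2 fold change of -0.10 (s.e. 0.35). For the last pair of genes, a change as small as that of *Krt8* was not detectable at this depth.

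**Figure D2:**
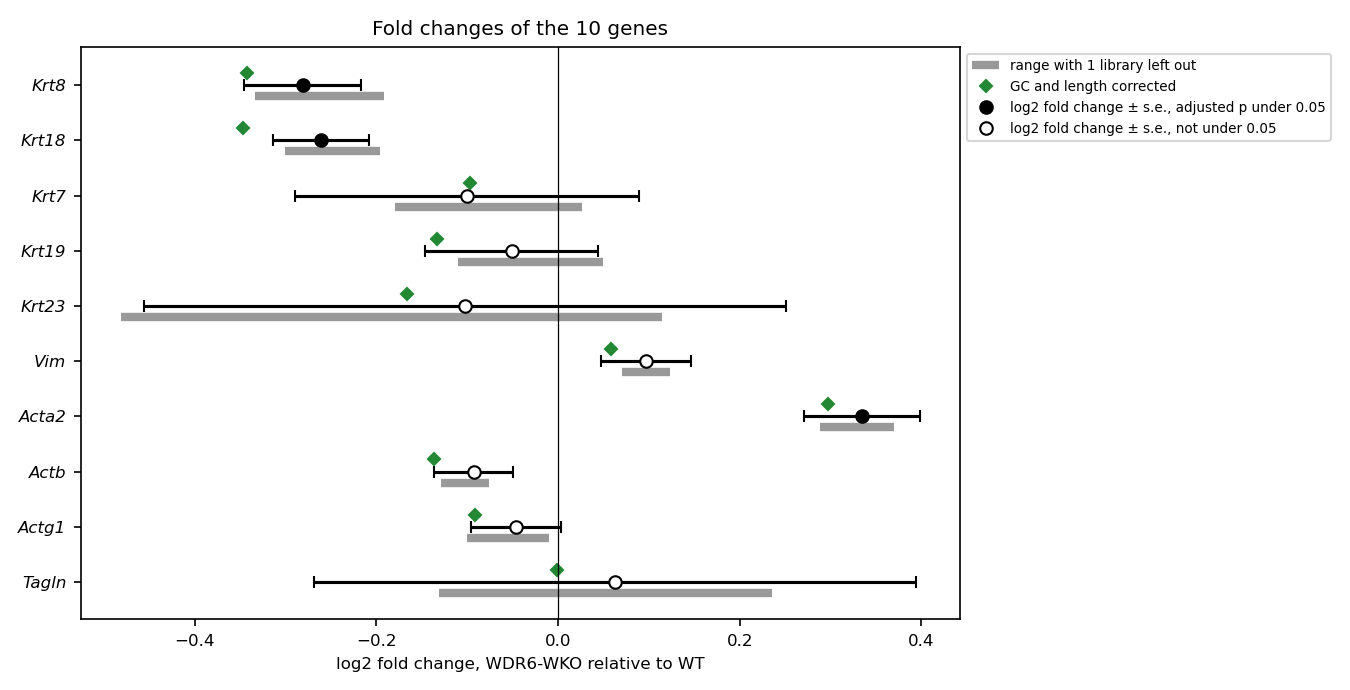
Log2 fold change of each of the 10 genes, WDR6-WKO relative to WT (circles, ± s.e., filled where the adjusted p of edgeR's test is under 0.05), with the range over fits that leave out 1 library (grey bars) and the value after GC and length correction (green diamonds). *Krt8* and *Krt18* stay below 0 and *Acta2* above 0 in all of these fits, while the bars of *Krt7*, *Krt19*, *Krt23* and *Tagln* cross 0.

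*Vim* was abundant in both groups, at rank 38 of all genes by CPM in WT. It had 1812, 1782, 1653 and 1623 CPM in WT and 1892, 1794 and 1825 CPM in WDR6-WKO libraries. The WDR6-WKO values lay at or above the upper end of the WT range, and 1 of them fell inside it. The log2 fold change was 0.10 (s.e. 0.05; adjusted p = 0.215, edgeR's test; p = 0.171, exact permutation test), so *Vim* did not pass the test. Relative to the hepatocyte keratins the groups were separate, with 15.9–17.9 *Vim* CPM per 100 *Krt8* plus *Krt18* CPM in WT and 20.0–24.4 in WDR6-WKO. That ratio contains the keratin decrease already described.

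*Acta2* was the only member called higher, and its fold change was not tested against that of *Vim*. It had 56.2, 62.5, 63.8 and 66.3 CPM in WT and 80.2, 80.8 and 74.2 CPM in WDR6-WKO libraries. Each WDR6-WKO library was above each WT library, with WDR6-WKO replicate 3 nearest to WT. The mean went from 62.2 ± 4.28 to 78.4 ± 3.62 CPM, or 126% of WT. The log2 fold change was 0.33 (s.e. 0.06; adjusted p = 0.00254, edgeR's quasi-likelihood test; p = 0.0286, exact permutation test). It was 0.37 without WDR6-WKO replicate 3, 0.30 after GC and length correction, and between 0.29 and 0.37 with any 1 library left out. *Acta2* transcripts have a GC content of 49.6%, near the median, and share 0.353% of their 50-base sequences with other genes.

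The cytoplasmic actins were within a narrow band. *Actb*, which the study used as the reference gene of its RT–PCR assays, had 3989, 4020, 4026 and 3967 CPM in WT and 3915, 3657 and 3680 CPM in WDR6-WKO libraries. The highest WDR6-WKO library lay just under the lowest WT library, so the ranges did not overlap. The means were 4000 ± 27.7 and 3751 ± 143 CPM, with a log2 fold change of -0.09 (s.e. 0.04; adjusted p = 0.171, edgeR's test; p = 0.0286, exact permutation test). The call depended on the processing: after GC and length correction the value was -0.14 (adjusted p = 0.0122, edgeR's test), and with library sizes alone the exact permutation test gave p = 0.0857. *Actb* shares 14.2% of its 50-base sequences with other genes, most with *Lrrc58* (9.57%).

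*Actg1* had 837, 836, 891 and 861 CPM in WT and 885, 817 and 784 CPM in WDR6-WKO libraries. The groups overlapped, and the log2 fold change was -0.05 (s.e. 0.05; adjusted p = 0.592, edgeR's test). Its level is uncertain in absolute terms, because 56.7% of its 50-base sequences occur in 22 other genes. The largest share is with *Gm12715* (51.1%), which was itself listed at 11.4 and 10.97 CPM. *Actb* exceeded *Actg1* by a CPM ratio of 4.68 ± 0.135 in WT and 4.53 ± 0.143 in WDR6-WKO. Set against *Actb*, smooth muscle actin stood at 1.41–1.67 *Acta2* CPM per 100 *Actb* CPM in WT and at 2.02–2.21 in WDR6-WKO.

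*Tagln*, which in contractile cells is expressed together with *Acta2*, was close to the floor of the table. It had 18, 14, 20 and 9 counts in WT and 20, 19 and 13 in WDR6-WKO libraries. The log2 fold change was 0.06 (s.e. 0.33; adjusted p = 0.929, edgeR's test), and its sign turned in several alternative fits. Exons of the antisense gene *Gm48529* overlap *Tagln* over 1241 bases, and that gene was listed at 1.40 and 1.66 CPM. A change in *Tagln* of the size seen for *Acta2* was not detectable at this depth.

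An actin outside the member list was lower, and it is named here after its values were seen. *Acta1*, skeletal muscle α-actin, had 35, 35, 47 and 63 counts in WT and 16, 7 and 12 in WDR6-WKO libraries. The groups did not overlap, and its level went from 2.31 ± 0.655 to 0.555 ± 0.194 CPM. Its log2 fold change was -2.05 (s.e. 0.32; adjusted p = 0.000525, edgeR's test), opposite in sign to that of *Acta2*. It was called in each of the 14 alternative fits that tested it.

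The partners of keratin filaments were examined next. Desmosomes are cell junctions in which desmogleins and desmocollins bridge neighbouring cells and plakoglobin, plakophilin and desmoplakin tie them to keratin. Of 19 tested genes for intermediate filament linkers and other intermediate filaments, 3 were lower and 0 higher by edgeR's test. Over all genes, 6.18% were lower and 6.65% higher. The median log2 fold change of the list was -0.12. *Jup* (plakoglobin) went from 372 ± 16.8 to 319 ± 19.8 CPM, a log2 fold change of -0.22 (s.e. 0.05; adjusted p = 0.0119, edgeR's test). *Pkp2* (plakophilin) had -0.18 and *Dsc2* (desmocollin) -0.26 on the same log2 scale, and these 2 calls were kept in 8 and 10 of 15 alternative fits, where *Jup* was kept in 15.

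*Dsp* (desmoplakin) had 355, 342, 342 and 354 CPM in WT and 323, 301 and 324 CPM in WDR6-WKO, and *Dsg2* (desmoglein) had 227, 223, 233 and 224 against 205, 199 and 217 CPM. Neither passed edgeR's test (adjusted p = 0.057 and 0.0808), although the groups did not overlap. *Jup*, *Pkp2*, *Dsc2*, *Dsp* and *Dsg2* were the 5 genes of the list with every WDR6-WKO library below every WT library, a grouping made after the values were seen. Over all genes tested, 11.7% were lower without overlap. *Plec*, the large linker between keratin and the cell's other filaments, had a log2 fold change of -0.02 (s.e. 0.06). *Pkp4* had 0.02. Among other keratins, 4 of 24 listed genes were analysed and 0 were called, 0 of them also at an unadjusted p under 0.05. *Krt20* was the highest of these at 66.7 ± 4.69 CPM in WT and 63.7 ± 4.89 CPM in WDR6-WKO.

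**Figure D3:**
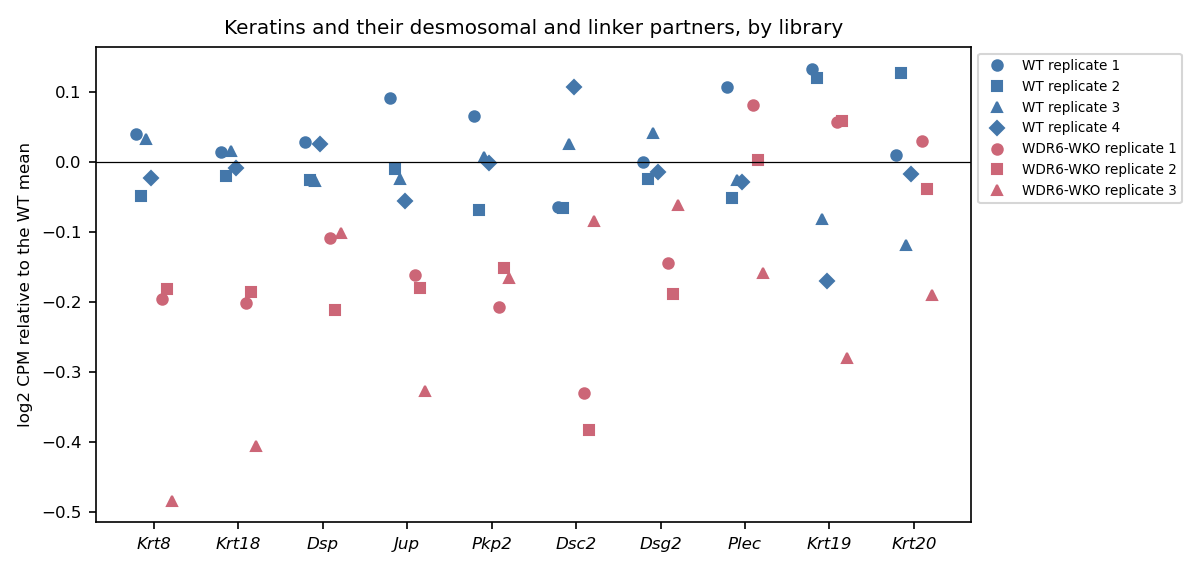
Log2 CPM of keratins, desmosomal genes and *Plec* in each library, relative to the WT mean of that gene (blue, WT; red, WDR6-WKO; symbols mark replicate numbers). *Krt8*, *Krt18*, *Dsp*, *Jup*, *Pkp2*, *Dsc2* and *Dsg2* have all red points below all blue points, and WDR6-WKO replicate 3 is lowest for the keratins, *Jup* and *Plec* but not for *Dsp*, *Dsc2* and *Dsg2*.

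Regulators of actin filaments were called at about the rate of all genes. Of 28 genes of actin nucleation and turnover, 2 were higher and 2 lower, against 6.65% and 6.18% of all genes, with a median log2 fold change of -0.02. *Gsn* (gelsolin, which severs filaments) had 21.7, 20.9, 18.5 and 21.4 CPM in WT and 31.6, 31.3 and 25.02 CPM in WDR6-WKO libraries, a log2 fold change of 0.51 (s.e. 0.09; adjusted p = 0.00177, edgeR's test). *Capg*, a related capping protein, rose by 0.43 (s.e. 0.09; adjusted p = 0.00372, edgeR's test) on the same scale. *Cttn* (cortactin, a stabilizer of branched filaments) and *Dstn* (destrin, a depolymerizing factor) were lower, at -0.20 and -0.21. The calls of *Cttn* and *Dstn* were kept in 12 and 8 of 15 alternative fits, and those of *Gsn* and *Capg* in 15 of 15.

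Among 27 contractile and crosslinking genes, 0 were higher and 3 lower, against 6.65% and 6.18% of all genes, with a median of -0.08. *Tpm2* (β-tropomyosin, which lines filaments of contractile cells) had 41.0, 39.9, 42.6 and 42.6 CPM in WT and 30.5, 26.1 and 23.8 CPM in WDR6-WKO libraries. Its log2 fold change of -0.63 (s.e. 0.08; adjusted p = 8.78e-05, edgeR's test) was the lowest of the list and was called in 15 of 15 alternative fits. *Pls3* (plastin, a bundling protein) and *Lasp1* had -0.22 and -0.17, each called in 11 of 15. *Myh9*, the main non-muscle myosin heavy chain, had -0.08 (s.e. 0.06), and *Myl9* had 0.15 (s.e. 0.13). These last 2 did not pass the test.

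Of 17 genes that link actin to adhesions and membrane, 0 were higher and 3 lower, with a median of -0.04. *Rdx* encodes radixin, known as the main ERM protein of hepatocytes in liver and a component of the bile canaliculus membrane. It went from 418 ± 11.8 to 341 ± 26.9 CPM, a log2 fold change of -0.29 (s.e. 0.05; adjusted p = 0.00202, edgeR's test). In these cultures *Msn*, another ERM gene, stood above *Rdx* in CPM, at 1067 ± 25.9 in WT. The log2 fold changes of *Msn* (-0.05) and of the ERM gene *Ezr* (-0.006) did not pass the test. *Parva* (parvin) had -0.19 and *Vcl* (vinculin) -0.18, and these were called in 8 and 9 of 15 alternative fits. Of 15 tubulin genes, 1 was lower, *Tubb5*, at -0.15, called in 8 of 15. Over all 7 lists together, 6 of 123 genes were higher and 15 lower, against 6.65% and 6.18% of all genes, and their median log2 fold change was -0.03. The number of lower calls depended on single libraries, in the lists as over all genes. Without WDR6-WKO replicate 2, and likewise without WT replicate 4, 6 list genes were higher and 5 lower. The numbers were 6 and 6 without WT replicate 3, 5 and 7 without WT replicate 1, and 21 and 32 without WDR6-WKO replicate 3. Over all genes, 914 of 14779 were lower with all libraries, 462 of 14792 without WDR6-WKO replicate 2 and 534 of 14712 without WT replicate 4. The numbers lower were 572 of 14731 without WT replicate 3, 661 of 14702 without WT replicate 1 and 2083 of 14796 without WDR6-WKO replicate 3. Of the 21 list genes called with all libraries, 8 were called in every alternative fit that tested them.

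Genes of the SRF and MRTF list, which also holds immediate early genes, were called in both directions. Whether each of them responds to actin in these cells was not tested. SRF and its cofactors of the MRTF family (*Mkl1*, *Mkl2*) are known to read the pool of free actin and to drive actin and muscle genes, *Acta2* among them. Of 13 genes in this list 4 were higher and 3 lower, against 6.65% and 6.18% of all genes, with a median log2 fold change of 0.01. *Ctgf*, a secreted matrix protein, had 877, 883, 881 and 819 CPM in WT and 1020, 991 and 1050 CPM in WDR6-WKO libraries, a log2 fold change of 0.24 (s.e. 0.05; adjusted p = 0.00274, edgeR's test). *Fhl1* had 0.51 and *Fosb* 0.70. Lower were *Egr1*, an immediate early gene, at -0.49 (s.e. 0.06; adjusted p = 2.9e-05, edgeR's test), *Ankrd1* at -0.23 and *Mkl2* at -0.22. *Ankrd1* was called in 11 of 15 alternative fits and *Mkl2* in 6 of 14. *Srf* and *Mkl1* had 0.01 and -0.06 and did not pass the test.

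**Figure D4:**
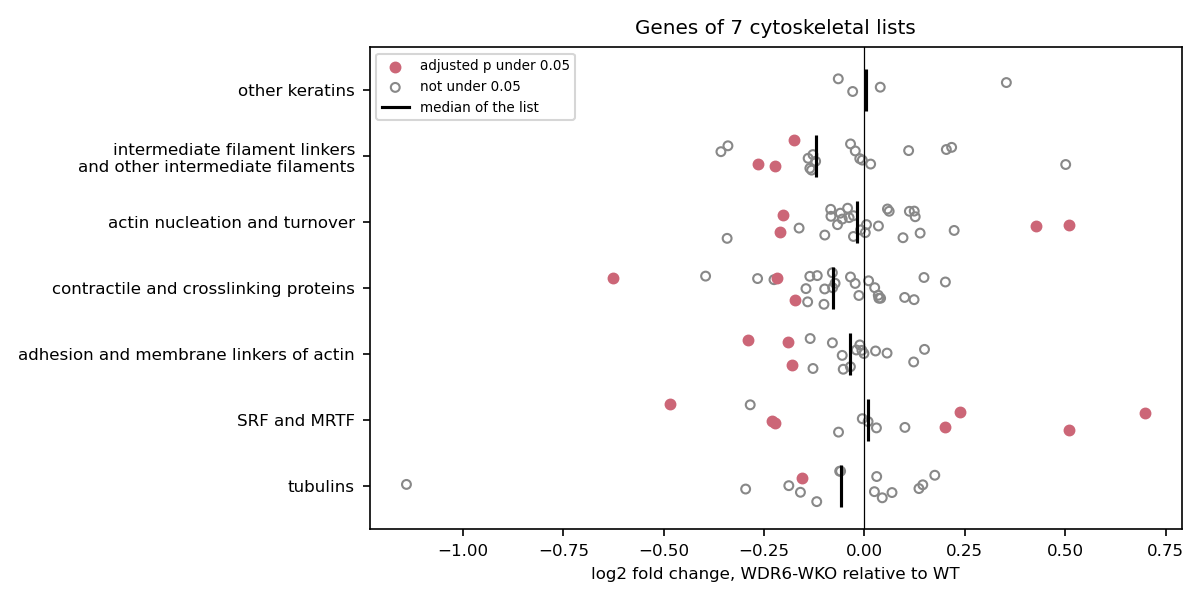
Log2 fold change (WDR6-WKO relative to WT) of each tested gene in 7 cytoskeletal lists, filled where the adjusted p of edgeR's test is under 0.05, with the median of each list as a vertical bar. The medians lie between -0.12 and 0.01, and calls in both directions appear in the lists of actin turnover and of SRF and MRTF.

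Since *Acta2*, *Vim* and *Krt19* also belong to other cells of the liver, markers of those cells were read beside them. The calls in each marker list compare with 6.65% of all genes called higher and 6.18% called lower. Summed markers of vascular smooth muscle (6 tested) lay at 145–154 CPM in WT and 120–135 CPM in WDR6-WKO, with 0 higher and 1 lower (*Rgs5*, -0.48). Its defining marker *Myh11* was at 3.17 ± 0.513 and 2.99 ± 0.472 CPM, and *Cnn1* at 1.17 ± 0.498 and 0.889 ± 0.279 CPM. No marker of that list was called higher. Most of its sum came from *Smtn* and *Mylk*, at 65.6 ± 5.96 and 44.5 ± 4.13 CPM in WT, and neither passed the test. Summed stellate cell and fibroblast markers (13 tested) lay at 885–918 and 870–942 CPM, with 1 higher (*Dcn*, 0.28) and 1 lower (*Ecm1*, -0.27). Within that list *Col3a1*, at 217 ± 10.99 and 237 ± 18.4 CPM, *Des*, at 12.6 ± 0.41 and 14.6 ± 1.22 CPM, and *Pdgfrb*, at 24.8 ± 2.12 and 21.0 ± 2.61 CPM, did not pass the test. The ranges of *Des* did not overlap (12.3–13.2 and 13.3–15.8 CPM), as was the case for 23.5% of all genes. The part of these cells in the *Acta2* result was not tested.

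Kupffer cell and macrophage markers (15 tested) summed to 937–1048 CPM in WT and 1093–1301 CPM in WDR6-WKO. Of these markers 5 were higher and 0 lower, against 6.65% and 6.18% of all genes. The 3 with the smallest p were *Lyz2* (0.64), *Tyrobp* (0.62) and *C1qc* (0.48), and *Fcgr1* had the largest log2 fold change (0.75). Of the 15 log2 fold changes, 14 were positive and 1 was negative (*Timd4*, -0.48, not called). *Clec4f* lay between 0.03 and 0.13 over the alternative fits and was called in 0 of 15. The macrophage genes called higher moved in the same direction as *Acta2*, *Gsn* and *Capg*, and their part in those results was not tested. Cholangiocyte markers (12 tested) summed to 4236–4603 and 4905–5403 CPM, with *Spp1* (0.31) and *Sox9* (0.20) higher and *Bicc1* (-0.28) lower. Most of that sum was *Spp1*, and *Epcam* was near 1 CPM, at 0.849 ± 0.402 and 1.08 ± 0.115. Endothelial markers (10 tested) summed to 343–397 and 316–378 CPM with 1 lower (*Tek*, -0.45), and of 2 mesothelial markers *Msln* was lower (-0.40).

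Hepatocyte markers (9 tested) were lower as a sum, at 8204–9775 CPM in WT and 7579–8101 CPM in WDR6-WKO. Most of that sum was *Alb*, whose groups overlapped. Of the 9 markers 5 were called lower and 0 higher, against 6.18% and 6.65% of all genes. Among the 5 were *Cps1* (the entry enzyme of the urea cycle, -0.69) and *Apoa1* (-0.69). Hepatocyte markers thus moved in the same direction as *Krt8* and *Krt18*, and their part in the keratin result was not tested. Against *Alb*, the keratin decrease was not separate between groups, with 73.6–95.9 *Krt8* CPM per 100 *Alb* CPM in WT and 62.4–86.0 in WDR6-WKO. *Alb* itself went from 7366 ± 730 to 6480 ± 363 CPM (adjusted p = 0.101, edgeR's test).

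**Figure D5:**
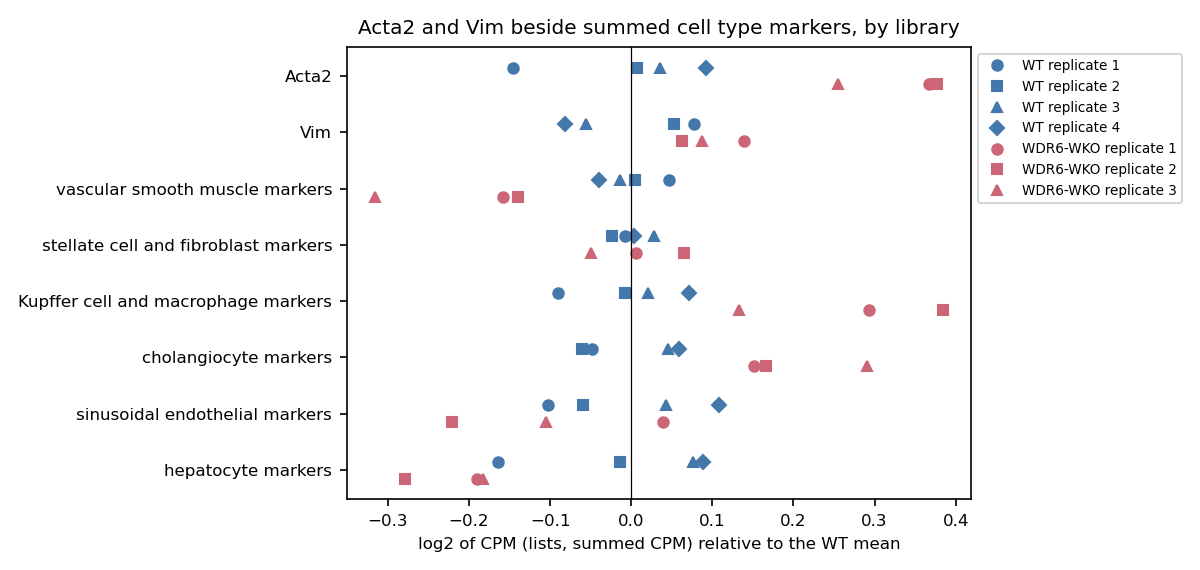
*Acta2* and *Vim* CPM and the summed CPM of 6 cell type marker lists in each library, as log2 relative to the WT mean (blue, WT; red, WDR6-WKO; symbols mark replicate numbers). The red points of *Acta2*, Kupffer cell and cholangiocyte markers lie above all blue points, those of vascular smooth muscle and hepatocyte markers lie below, and those of *Vim*, stellate and endothelial markers overlap.

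The gene whose pattern over the 7 libraries was most like that of *Acta2* was *Cxcl12*, at a mean absolute distance of 0.0357 on the log2 scale. *Cxcl12*, a chemokine of stromal cells, went from 85.8 ± 8.14 to 108 ± 4.03 CPM, a log2 fold change of 0.33. It was chosen for its likeness to *Acta2*, so its fold change is a description.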

How the data were processed

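RNA of 4 WT and 3 WDR6-WKO samples of primary hepatocytes was sequenced by the authors on an Illumina HiSeq platform from NEBNext Ultra libraries and aligned to mm10 (GRCm38) with Bowtie2 2.2.3, according to the submitters' processing notes. The authors deposited a table of raw read counts for each gene symbol. The counting tool, annotation and strand setting are not given in the sources used here, and no row of the table totals under 50 counts. Samples were grouped by their labels.

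Counts were scaled (TMM), filtered (filterByExpr) and tested with edgeR 4.0.16 in R 4.3.3 comparing WDR6-WKO with WT by the robust quasi-likelihood method. Benjamini–Hochberg adjustment covered 14779 genes. Standard errors were derived from the fold change and F statistic. CPM are counts relative to a TMM-scaled library total. The common biological coefficient of variation was 7.40%, which exceeds counting error for abundant genes but not for *Krt7*, *Krt23* or *Tagln*. Permutation tests were exact and 2-sided over 35 splits. No 2 libraries agreed within sampling noise. Steps were tested on simulated data.

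Alternatives were DESeq2 1.42.0, limma-voom (limma 3.58.1), other scalings and filters, each library left out, a replicate block, the study's thresholds and, added after seeing the data, a loess correction for GC content and transcript length. Gene models came from GENCODE (GRCm38). The 10 members and the gene lists were chosen with earlier results of these data known. Genes outside the members are the 3 with the smallest p in each direction in a list, the leading marker, the 2 nearest neighbours of each called member, and those said to be chosen after their values were seen or given for context. Some genes that meet this rule are not reported here.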

Additional observations from a re-analysis of the deposited data

How the results depend on the processing

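Of 149 member values recomputed under alternatives, 139 kept their direction and side of the threshold, and *Krt8*, *Krt18* and *Acta2* were called in all 15 alternative fits. Under the study's thresholds 0 members were called. *Actb* was called after GC and length correction (-0.14), and its exact permutation p was 0.0857 with library sizes alone. *Tagln* turned to -0.000899 after GC and length correction and to -0.13 with a replicate block, and it was not tested with a minimum of 10 counts in every library. With single libraries left out, log2 fold changes ran from -0.18 to 0.026 for *Krt7*, -0.11 to 0.049 for *Krt19*, -0.48 to 0.11 for *Krt23* and -0.13 to 0.24 for *Tagln*. Genes called ran from 1032 to 4233 and genes called in the 7 lists from 11 to 53, both highest without WDR6-WKO replicate 3 and lowest without WDR6-WKO replicate 2. Genes called also moved by over 1.5 times without WDR6-WKO replicate 1 (1180) and WT replicates 3 (1210) and 4 (1182), and the list count without WT replicates 1 (12), 3 (12) and 4 (11). The cause was not tested. GC correction called 2719 genes. The replicate block called 1762 genes, with no member call changed. Deviations of same-numbered libraries had correlations of 0.18, 0.067 and 0.13, and those of differently numbered libraries ran from -0.32 to 0.27. With so few libraries, this cannot decide whether replicate numbers pair the samples. Counts of 7 to 76 per library limit *Krt7*, *Krt23*, *Tagln* and *Acta1*.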
